A study of Mus musculus with 6 samples.

Results

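The Rab genes encode small GTPases that direct membrane traffic inside cells, and 51 of the 15705 genes with a splicing deficiency (Sd) score in mouse cortical neurons belong to this family. They were chosen by symbol alone, as every scored gene named Rab followed by a number and at most a letter and a digit. The rule itself uses no measured value, but the family was picked with earlier results of these data known. The Sd score is a ratio that the authors deposited for each gene and library. Its formula is not given in the sources used here, and it is read here as the amount of unspliced relative to spliced RNA of a gene, so that a higher score stands for less complete splicing. Neurons came from C57BL/6 mouse embryos at embryonic day 18, were cultured for 7 days and were then exposed to lentivirus for 3 days. The 3 control libraries came from cultures given the vector FCK1.3GW, which carries EGFP behind a short CaMKII promoter, and the 3 N40K libraries from cultures given FCK1.3GW-N40K, in which N40K takes the place of EGFP. Both vectors also carry the woodchuck hepatitis virus posttranscriptional element and long terminal repeats. N40K is an N-terminal fragment of the U1 snRNP protein encoded by Snrnp70, and the series asks what disturbance of this complex does to neurons. The CaMKII promoter is active mainly in excitatory neurons, so cells of other types in the cultures may carry the virus without making its product. The labels say neither whether the replicates were separate cultures nor how many embryos were pooled, so the p-values here cover no more than the scatter among 6 libraries, possibly technical.

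A Rab protein switches between a GTP-bound form, which sits on a membrane and binds effectors, and a GDP-bound form, which GDI extracts into the cytosol. Exchange factors load GTP, GTPase-activating proteins end the active state, and each Rab marks its own compartment. In neurons, Rab3 and Rab27 proteins act on synaptic and secretory vesicles, Rab4, Rab5, Rab7 and Rab11 on endosomes, and Rab1, Rab2 and Rab6 on traffic between the endoplasmic reticulum (ER) and the Golgi.

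Scores of all 15705 genes lay between 0.0001 and 2886.7, and the reads behind a score are unknown. Over all genes, the median score of a library was 0.0127 to 0.0136 in control neurons and 0.0146 to 0.0163 in N40K neurons. Snrnp70 had scores of 0.0215, 0.021 and 0.0223 in the control libraries and 0.0242, 0.0224 and 0.0234 in the N40K libraries (limma adjusted p = 0.376), and a score does not measure how much N40K was made. Of 7 neuron markers all had a score, as did 6 of 6 astrocyte, 4 of 6 oligodendrocyte lineage, 4 of 6 microglia and 2 of 4 endothelial markers. A score gives no level, so the makeup of the cultures could not be checked against these markers. RNA was taken from whole cultures, where fewer cells of a type and less RNA per cell cannot be told apart.

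Scores of 16 Rab genes rose with N40K, that of 1, Rab40c, fell, and 34 did not pass the test (limma on log2(score + 0.01), Benjamini-Hochberg adjusted p under 0.05 over all 15705 genes). This was 31.4% of the family for rises, where 21.5% of all genes tested rose and 4.11% fell. In 23 Rab genes every N40K library exceeded every control library and in 3 every one was lower, where the share over all genes was 33.6% above and 8.67% below. The ratio of the mean N40K score to the mean control score had a median of 1.18 over the 51 Rab genes and 1.11 over all genes. Among the 16 rises this ratio ran from 1.32 in Rab18 to 6.16 in Rab39b, and 8 rises were at least 1.5-fold.

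The count of rises varied with the libraries included and with the scale. Without control 1, control 2 or control 3, the number of Rab rises was 6, 4 and 5, or 11.8%, 7.84% and 9.8% of the family, beside 12.9%, 10.3% and 10.4% of all genes. Without N40K 1, N40K 2 or N40K 3 it was 14, 9 and 9, or 27.5%, 17.6% and 17.6%, beside 23.7%, 13.3% and 15.1% of all genes. Median centring, in which libraries were shifted to a common median (0.13 apart between the groups on the log2(score + 0.01) scale), gave 3 rises and 13 falls. These were 5.88% and 25.5% of the family, beside 9.75% rises and 18.4% falls over all genes. The Rab falls include Rab3c and Rab7, in which every N40K score exceeded every control score before centring. Quantile normalization gave 3 and 5, or 5.88% and 9.8%, beside 12.9% and 12% of all genes. Deviation centring, which instead aligns the genes' median deviations, gave 6 and 6, or 11.8% each, beside 14.2% and 9.67% of all genes. The control mean lay under the pseudocount of 0.01 in 34 of the 51 genes. On log2 scores without a pseudocount, an alternative added after seeing the data, the same 17 genes were called, beside 22.4% rises and 4.13% falls over all genes. Deviation centring on that scale left 8 rises and 3 falls, or 15.7% and 5.88%, beside 16.1% and 8.98% of all genes. Median centring without a pseudocount left 6 rises and 3 falls, or 11.8% and 5.88%, beside 14.4% and 11.2% of all genes. The Rab share of rises was therefore not above that of all genes under every setting, and the difference was not tested. It lay below that of all genes under each centring, under quantile normalization and when any control library was left out. Called whichever library was left out were 4 genes, Rab4a, Rab8b, Rab39b and Rab43.

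**Figure D1:**
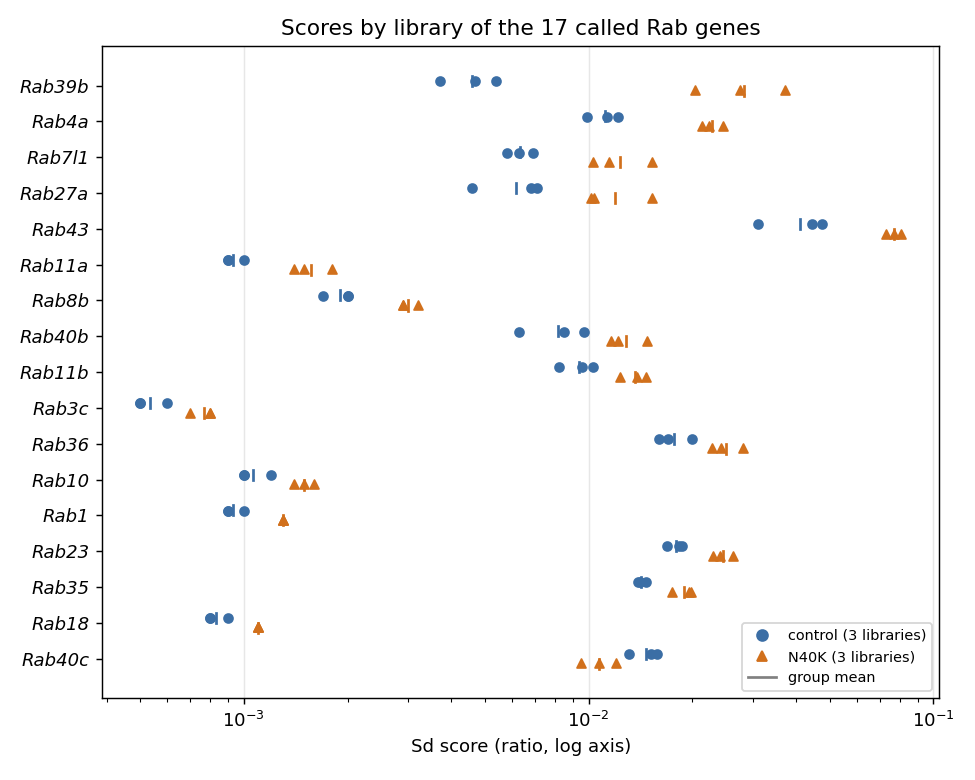
Sd score of the 17 called Rab genes in each library, on a log axis, with control libraries as circles, N40K libraries as triangles and group means as short lines; equal scores cover each other. In every gene shown the groups do not overlap, and Rab40c is the gene in which N40K scores lie to the left.

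Among the Rabs of synaptic and secretory vesicles, 2 of 6 rose, Rab27a and Rab3c, and none fell, beside 21.5% rises and 4.11% falls over all genes. Their median ratio of mean scores was 1.26, and N40K scores lay above all control scores in 3 of the 6, beside 33.6% of all genes. These values depend on how genes were placed, which was done with earlier results of these data known. Rab26, a Rab of vesicle clusters, was placed outside this group, and its N40K scores were all below its control scores (ratio 0.874). Rab3a, the main Rab of synaptic vesicles and a partner of the active zone protein RIM, had scores of 0.0051, 0.0059 and 0.0056 in control libraries and 0.0062, 0.0061 and 0.0058 in N40K libraries. The highest control score exceeded the lowest N40K score, and the gene did not pass (log2 change 0.05 ± 0.03 SE, limma adjusted p = 0.319). On log2 scores without a pseudocount the 95% interval of its change ran from -0.09 to 0.34, so a rise of that size is not excluded. Rab3c, a second Rab of synaptic vesicles, had scores of 0.0006, 0.0005 and 0.0005 in control libraries and 0.0007, 0.0008 and 0.0008 in N40K libraries. The groups did not overlap and the ratio was 1.44 (limma adjusted p = 0.0488), but the means differ by little more than 2 steps of the last decimal (0.0001) that the table holds. This call ended without any library other than N40K 1 (highest adjusted p = 0.15), and under median centring the change on the log2(score + 0.01) scale passed as a fall (-0.10, 0.0344). Without a pseudocount it stayed positive, at 0.30 under median centring (0.0593) and 0.36 under deviation centring (0.0402, a rise).

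Rab3b, found on vesicles of neurons and endocrine cells, had a score of 0.0008 in all 3 control libraries and of 0.0008, 0.0006 and 0.0009 in N40K libraries. Rab3d, known from secretory granules of gland cells, had the highest scores of the Rab3 genes, 0.021, 0.0216 and 0.0266 against 0.0248, 0.0247 and 0.0224. In both genes the groups overlapped and neither passed (limma adjusted p = 0.833 and 0.774). Without a pseudocount the 95% intervals of their log2 changes ran from -0.47 to 0.30 in Rab3b and from -0.23 to 0.36 in Rab3d. Rab27a, which carries melanosomes and secretory granules along actin, had scores of 0.0046, 0.0071 and 0.0068 in control libraries and 0.0102, 0.0153 and 0.0104 in N40K libraries. Every N40K score exceeded every control score, the mean rose from 0.00617 ± 0.00137 to 0.012 ± 0.00289 (SD, n = 3), and the ratio was 1.94 (log2 change 0.44 ± 0.11, limma adjusted p = 0.0356). The call ended without any library other than N40K 1 (highest adjusted p = 0.0992). Rab27a also did not pass under median centring (limma adjusted p = 0.0988), quantile normalization (0.096) or deviation centring (0.0635). Without a pseudocount it passed under neither median nor deviation centring (0.0788 and 0.0672). Rab27b, its paralogue on secretory vesicles, had scores of 0.0008, 0.0008 and 0.0005 against 0.0009, 0.001 and 0.0011. These groups did not overlap either, with a ratio of 1.43, but the gene did not pass (limma adjusted p = 0.105).

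Among the endosomal Rabs, 4 of 16 rose, or 25%, close to the 21.5% of all genes, and none fell. Their median ratio was 1.23, and N40K scores lay above all control scores in 9 and below them in 1, beside 33.6% and 8.67% of all genes. The rises were in Rab4a, Rab11a, Rab11b and Rab35. Rab4a, which returns cargo rapidly from early endosomes to the surface, had scores of 0.0122, 0.0099 and 0.0113 in control libraries and 0.0213, 0.0224 and 0.0246 in N40K libraries. Its mean rose from 0.0111 ± 0.00116 to 0.0228 ± 0.00168 (SD, n = 3), a ratio of 2.04 and a log2 change of 0.63 ± 0.07 (limma adjusted p = 0.00399). This call held without any single library (highest adjusted p = 0.0223), under median centring (0.00359) and after quantile normalization (0.00366). By annotation Rab4a overlaps Gm20388, a protein-coding model on the same strand. Rab11a and Rab11b act on recycling endosomes, which in neurons supply receptors to dendritic spines. Rab11a scores were 0.001, 0.0009 and 0.0009 against 0.0015, 0.0014 and 0.0018, a ratio of 1.68 (limma adjusted p = 0.0161), and Rab11b scores were 0.0103, 0.0082 and 0.0096 against 0.0147, 0.0123 and 0.0138, a ratio of 1.45 (0.026). Neither pair of groups overlapped. Leaving out control 2 or control 3 ended the Rab11a call (adjusted p up to 0.0622), and leaving out any library but N40K 2 ended the Rab11b call (0.0769). Under median centring on the log2(score + 0.01) scale neither passed, with log2 changes of -0.05 and 0.16 (limma adjusted p = 0.159 and 0.121). Without a pseudocount, median centring left Rab11a as a rise (0.0137) but not Rab11b (0.0961). The means of Rab11a differ by 0.00063, a few steps of the last decimal (0.0001). Rab35, a Rab of the plasma membrane and of recycling endosomes, had scores of 0.0147, 0.0139 and 0.0141 against 0.0198, 0.0196 and 0.0175, a ratio of 1.33 (limma adjusted p = 0.0242), a call that ended without any library other than N40K 3 (0.0798). Rab35 did not pass under median centring either (0.21).

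The other 12 endosomal Rabs did not pass. Ratios of their mean scores ran from 0.794 in Rab15, an inhibitory Rab of early endosomes, to 1.53 in Rab5a, which drives early endosome fusion; the members in this paragraph were chosen after their values were seen. Rab5a scores were 0.0016, 0.0014 and 0.0015 in control libraries and 0.0017, 0.0024 and 0.0028 in N40K libraries, which do not overlap (limma adjusted p = 0.0888). Its paralogues Rab5b and Rab5c had ratios of 1.07 and 0.951, with overlapping groups. Rab7, the Rab of late endosomes and lysosomes, had scores of 0.0012, 0.0011 and 0.0011 against 0.0014, 0.0013 and 0.0014, a ratio of 1.21 (limma adjusted p = 0.076). Rab15 was the endosomal gene with all N40K scores below the control scores, 0.0035, 0.0036 and 0.0036 in control libraries and 0.0022, 0.0031 and 0.0032 in N40K libraries (limma adjusted p = 0.13). It passed as a fall under median centring (0.00652), quantile normalization (0.00982) and deviation centring (0.0154), and under median and deviation centring without a pseudocount (0.0259 and 0.0394).

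**Figure D2:**
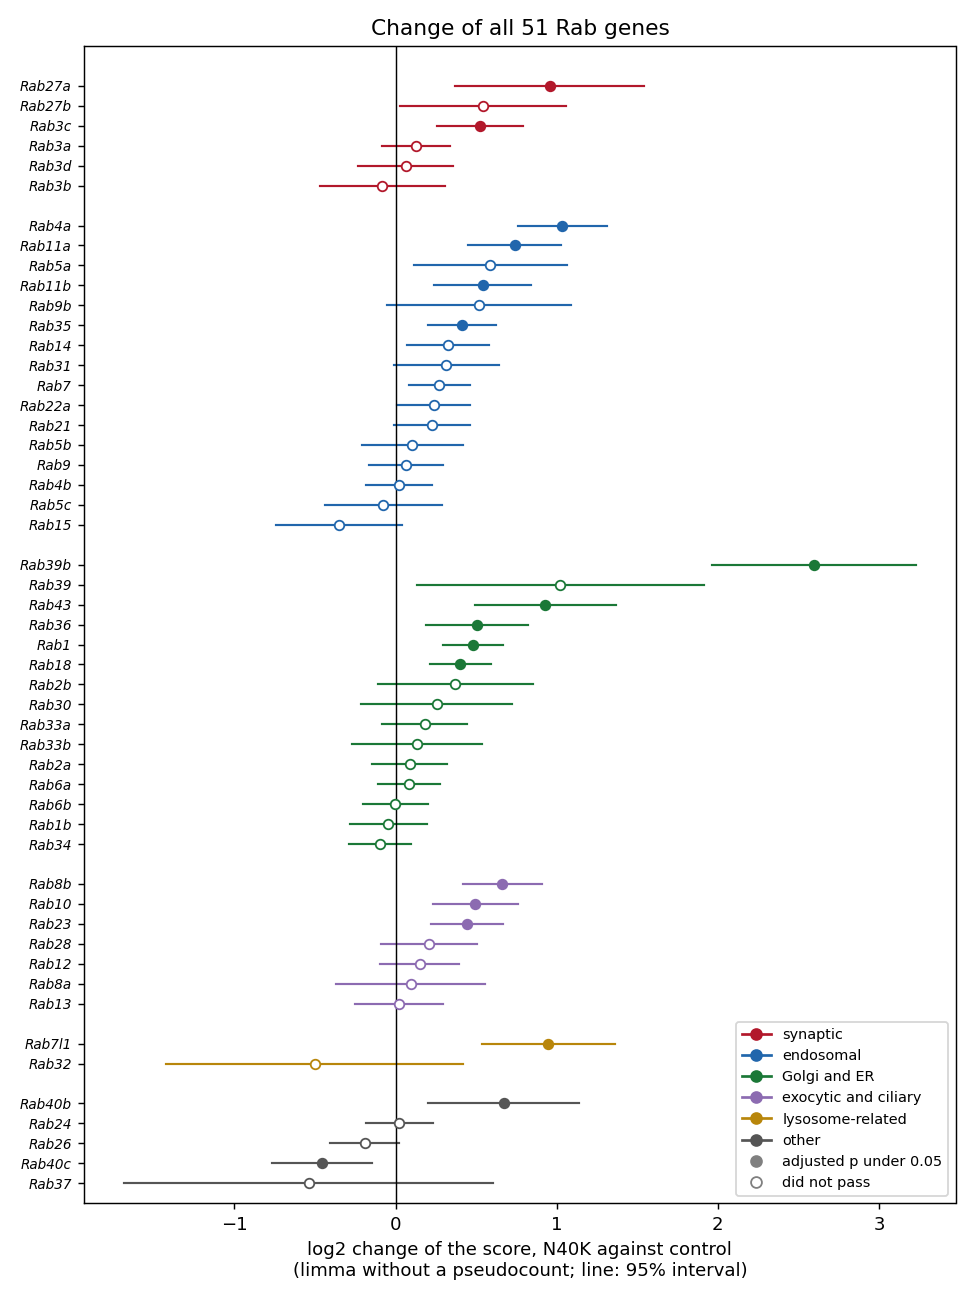
log2 change of the score of all 51 Rab genes, N40K against control, from limma without a pseudocount, grouped by compartment, with 95% intervals as lines and filled points for genes with an adjusted p under 0.05. Rab39b lies furthest to the right at 2.60, and filled points occur in each group.

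Among the Rabs of the Golgi and ER, 5 of 15 rose, or 33.3% beside 21.5% of all genes, and none fell, with a median ratio of 1.18. The change of Rab39b was the largest of the family. Rab39b, an X-linked gene whose loss causes intellectual disability and early-onset parkinsonism in humans, had scores of 0.0037, 0.0047 and 0.0054 in control libraries and 0.0203, 0.0275 and 0.0372 in N40K libraries. The lowest N40K score exceeded the highest control score, and the mean rose from 0.0046 ± 0.000854 to 0.0283 ± 0.00848 (SD, n = 3). The ratio was 6.16, which 42 of the 15705 genes exceeded, and the log2 change was 1.37 ± 0.16 (limma adjusted p = 0.00478). The call held without any single library (highest adjusted p = 0.0248), under median centring (0.00435) and after quantile normalization (0.00441). By annotation an antisense model, Gm15063, lies opposite Rab39b. Rab43, which acts in traffic between the ER and the Golgi, had scores of 0.0476, 0.031 and 0.0445 against 0.0729, 0.0769 and 0.0808. Its mean rose from 0.041 ± 0.00883 to 0.0769 ± 0.00395, a ratio of 1.87 (log2 change 0.78 ± 0.14, limma adjusted p = 0.0143), and the call held without any single library (highest adjusted p = 0.0472). By annotation 3 other gene models, of which Gm45140 is protein-coding, overlap Rab43 on the same strand, and reads shared with them were not tested.

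Rab1, which starts transport from the ER to the Golgi, had scores of 0.0009, 0.0009 and 0.001 in control libraries and 0.0013 in all 3 N40K libraries, a ratio of 1.39 (limma adjusted p = 0.0155). Rab18, a Rab of the ER and of lipid droplets, had scores of 0.0008, 0.0008 and 0.0009 against 0.0011 in all 3 N40K libraries, a ratio of 1.32 (0.0333). Both rises amount to a few steps of the last decimal. Leaving out control 1 or control 2 ended the Rab1 call (adjusted p up to 0.0626), and the Rab18 call ended without any library other than N40K 1 (0.111). Under median centring both log2 changes turned negative (-0.08 and -0.10) on the log2(score + 0.01) scale and did not pass. Without a pseudocount they were 0.26 and 0.18 under median centring, where neither passed, and 0.31 and 0.23 under deviation centring, where Rab1 passed (0.0424) and Rab18 did not (0.1). Rab36, a Golgi Rab that also positions late endosomes, had scores of 0.02, 0.016 and 0.017 against 0.0243, 0.0281 and 0.0228, a ratio of 1.42 (limma adjusted p = 0.0394). Its call ended whichever library was left out (highest adjusted p = 0.117), and the gene did not pass under median centring (0.124). The other 10 genes did not pass, with ratios from 0.936 in Rab34 to 2.20 in Rab39. They include the Golgi Rabs Rab6a and Rab6b, at ratios of 1.06 and 1, and Rab2a and Rab2b, at 1.07 and 1.30, all 4 picked with their values in view.

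Rab39b, Rab39, Rab33a and Rab33b have 1 intron each in the annotated principal transcript, so their scores rest on the splicing of a single intron where this transcript is the one made. The coding sequence around this intron is shown because the U1 snRNP pairs across the end of the exon and the start of the intron. Each line gives the last 15 bases of exon 1 and the first 15 bases of exon 2 from GENCODE M21 transcripts (GRCm38, transcript strand), with the intron removed and the last 3 bases of exon 1 in capitals.
Rab39b: tcaagagaggttCAGatccatcactcgcgc
Rab39: gcaggagcgcttCAGatcaataactcgatc
Rab33a: ggcgagaagatcAAGgttcaggtgtgggac
Rab33b: ggagagcgcatcAAGatccagttgtgggac
Exon 1 ends in CAG in Rab39b and Rab39 and in AAG in Rab33a and Rab33b, both of which end in the AG that pairs with U1. The intron is 2785 bases long in Rab39b, 19152 in Rab39, 9790 in Rab33a and 8775 in Rab33b. Rab39 had scores of 0.0513, 0.0451 and 0.056 in control libraries and 0.0961, 0.1746 and 0.0646 in N40K libraries. The groups did not overlap and the ratio was 2.20, but the N40K libraries spread widely and the gene did not pass (limma adjusted p = 0.097). Rab33a and Rab33b, Golgi Rabs of which Rab33b also binds the autophagy protein Atg16l1, had ratios of 1.13 and 1.09 with overlapping groups (limma adjusted p = 0.289 and 0.636). The bases that differ were not tested as a cause of these values. Over all annotated introns of the 51 Rab genes, 50.4% of exons before an intron end in AG, beside 56.2% over all scored genes with an annotation, 54.2% in the 16 rises and 48.3% in the 34 genes that did not pass.

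The 3 rises among 7 Rabs of exocytosis and cilia were in Rab8b, Rab10 and Rab23, a share of 42.9% of a small group beside 21.5% of all genes. Rab8b, which acts in transport from the Golgi to the surface, had scores of 0.002, 0.002 and 0.0017 in control libraries and 0.0029, 0.0032 and 0.0029 in N40K libraries, a ratio of 1.58 (limma adjusted p = 0.00685). This call held without any single library (highest adjusted p = 0.0299), but not under median centring on the log2(score + 0.01) scale, where the log2 change was -0.003 (0.958). Without a pseudocount Rab8b passed as a rise under median centring (0.44, 0.0344) and deviation centring (0.49, 0.0228). Its paralogue Rab8a, at 0.0019, 0.0018 and 0.0018 against 0.0016, 0.0018 and 0.0026, did not pass (0.714). Rab10, a Rab of exocytosis and axon growth, had scores of 0.0012, 0.001 and 0.001 against 0.0015, 0.0014 and 0.0016, a ratio of 1.41 (limma adjusted p = 0.0267). Rab23, a negative regulator of Hedgehog signalling at cilia, had scores of 0.0169, 0.0187 and 0.0183 against 0.023, 0.0241 and 0.0263, a ratio of 1.36 (0.0223). Leaving out control 2, control 3, N40K 2 or N40K 3 ended the Rab10 call (adjusted p up to 0.0945), and leaving out any library but N40K 1 ended the Rab23 call (0.0773). Under median centring on the log2(score + 0.01) scale neither passed, with log2 changes of -0.07 and 0.17 (limma adjusted p = 0.076 and 0.0838). Without a pseudocount these changes were 0.27 and 0.22, and neither passed (0.0813 and 0.125). The means of Rab10 differ by 0.00043, a few steps of the last decimal (0.0001).

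Of the remaining 7 genes, Rab7l1 and Rab40b rose and Rab40c fell. Rab7l1, also called Rab29 and known as a partner of the kinase LRRK2, had scores of 0.0058, 0.0069 and 0.0063 in control libraries and 0.0153, 0.0115 and 0.0103 in N40K libraries. The ratio was 1.95 (log2 change 0.45 ± 0.09, limma adjusted p = 0.0176), and the call ended without any of the control libraries (highest adjusted p = 0.063). Under median centring Rab7l1 did not pass on the log2(score + 0.01) scale (0.0755) but passed without a pseudocount (0.0458). Rab40b and Rab40c carry a SOCS box and serve ubiquitin ligase complexes. Rab40b scores were 0.0085, 0.0063 and 0.0097 against 0.0116, 0.0122 and 0.0148, a ratio of 1.58 (limma adjusted p = 0.0444). Rab40c scores were 0.0152, 0.0131 and 0.0158 against 0.0095, 0.0107 and 0.012, a ratio of 0.73 (0.0478). Both sets of groups were apart, in opposite directions, and both calls ended whichever library was left out (highest adjusted p = 0.108 and 0.136). The fall of Rab40c also passed under median centring (0.0066) and after quantile normalization (0.00686). The rise of Rab40b passed under neither (0.0785 and 0.0917). Rab26, Rab37, Rab32 and Rab24, named after their values were seen, did not pass. Rab32 and Rab37 had ratios of 0.697 and 0.75. Rab24, linked to autophagy, had the highest scores of the family, 0.4784, 0.4432 and 0.4686 against 0.496, 0.4697 and 0.4464, and by annotation overlaps Prelid1 on the opposite strand. Rab26, a Rab of vesicle clusters, had scores of 0.1038, 0.1051 and 0.1178 against 0.0952, 0.0925 and 0.0979, all lower with N40K (limma adjusted p = 0.166), and by annotation overlaps Traf7 on the same strand. Rab26 passed as a fall under median centring (0.045), quantile normalization (0.0419) and both centrings without a pseudocount (0.032 for the median and 0.0421 for the deviation), but not under deviation centring with it (0.0819).

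**Figure D3:**
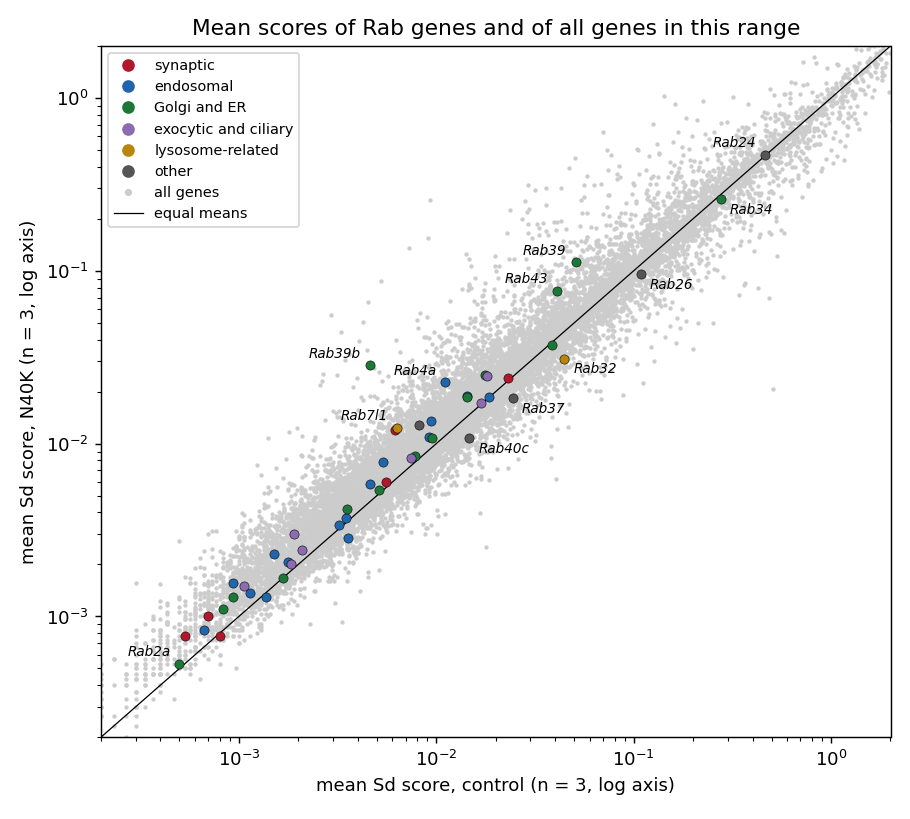
Mean Sd score in N40K libraries against mean Sd score in control libraries (n = 3 each, log axes), with Rab genes coloured by compartment and all genes in this range in grey. Control means of Rab genes span 0.0005 in Rab2a to 0.463 in Rab24, and of the Rab genes Rab39b lies furthest above the line of equal means.

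Control scores of Rab genes differed far more between genes than between conditions. The mean control score had a median of 0.00553 over the family and 0.0133 over all genes, and 16 Rab genes were under 0.002. Long Rab genes had low scores: across the 51 genes, which share the same libraries and are not independent, the Spearman correlation of gene length with mean control score was -0.63, beside -0.60 over the 14914 scored genes with an annotated length. Rab24, the shortest gene at 2204 bases, had a mean control score of 0.463, and Rab3c, the longest at 226810 bases, one of 0.000533, while Rab3a, at 3999 bases, had the family's median of 0.00553. The change with N40K followed length less in this family than over all genes: the correlation of length with log2 change without a pseudocount was 0.14 over the Rab genes and 0.39 over all genes, and the difference between these was not tested.

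**Figure D4:**
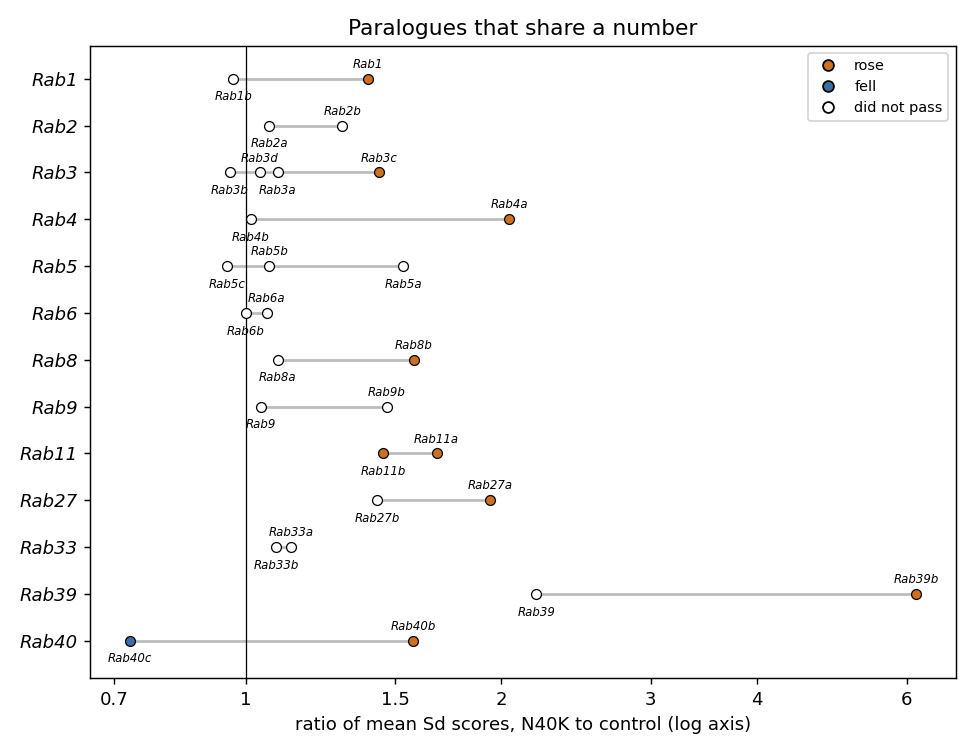
Ratio of mean Sd scores, N40K to control, for the 29 Rab genes that share their number with another member, on a log axis with 1 line per number; orange points rose, the blue point fell and white points did not pass. Rab11a and Rab11b are the members of the only number where all rose, and Rab40b and Rab40c lie on opposite sides of 1.

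Close paralogues often had different scores and changes. Of the 13 numbers shared by more than 1 member, all members rose in 1, Rab11, no member passed in 5, and in 7 some rose and others did not. Rab1 rose while Rab1b, with a mean control score 41.2-fold higher, had a ratio of 0.967. Rab4a rose 2.04-fold while Rab4b, at 0.019, 0.0183 and 0.0181 in control libraries and 0.0188, 0.0175 and 0.0199 in N40K libraries, had a ratio of 1.01. The 95% interval of the log2 change without a pseudocount ran from 0.76 to 1.31 in Rab4a and from -0.19 to 0.22 in Rab4b, and these do not overlap. Rab27a and Rab27b, by contrast, had intervals of 0.37 to 1.54 and 0.03 to 1.06, which overlap widely, although only Rab27a passed. Differences between paralogues were not tested directly, and a paralogue that did not pass is not shown to be unchanged.

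Partners of the Rab proteins were read from 6 lists, which hold 142 scored genes. The lists were chosen with earlier results of these data known, so their shares are descriptions and no evidence of an excess. Of the 142 genes, 54 rose and 3 fell, or 38% for rises beside 21.5% of all genes. Their median ratio of mean scores was 1.26. The genes of these lists are long, with a median length of 50582 bases beside 25455 over all genes and 23207 in the Rab genes. By annotation 96 of the 142 overlap another gene, beside 8830 of the 14914 annotated genes. The part of length or overlap in the count of 54 rises was not tested. Median centring gave 17 rises and 19 falls among the 142, beside 9.75% rises and 18.4% falls over all genes. Quantile normalization gave 30 and 10, beside 12.9% and 12% of all genes. Without a control library the rises numbered 32, 22 and 24 in the order of control 1 to control 3, beside 12.9%, 10.3% and 10.4% of all genes. They numbered 63, 32 and 41 without N40K 1, N40K 2 and N40K 3, beside 23.7%, 13.3% and 15.1% of all genes.

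In the lists of effectors, counts stand beside 21.5% rises and 4.11% falls over all genes, and beside 14.4% and 11.2% under median centring without a pseudocount. Among effectors of Rab3 and Rab27, 4 of 11 rose and none fell, with 4 rises and 1 fall under that centring. Sytl5, a Rab27 effector, rose 1.98-fold (limma adjusted p = 0.00769), Rims2, the active zone protein that binds Rab3, 2.30-fold (0.0142), and Myrip, which links Rab27a to myosin, 1.82-fold (0.034). Leaving out control 2 or control 3 ended the Rims2 call (adjusted p up to 0.0574), and leaving out any library but N40K 1 ended the Myrip call (0.109). Among effectors of endosomal Rabs, 14 of 29 rose and 1, Myo5b, fell, with 9 rises and 2 falls under that centring. Rab11fip2, which binds Rab11, rose from a mean of 0.0063 to 0.0157, a ratio of 2.50 (limma adjusted p = 0.00337), and the Rab5 effector gene Ankfy1 1.72-fold (0.00788). Rilpl1, whose place in this list is uncertain, rose 2.05-fold (0.00856). Among effectors of Golgi Rabs, 11 of 26 rose and 1, the dynein adaptor gene Bicd2, fell, with 8 rises and 2 falls under that centring. The 3 smallest p-values were in subunits of the conserved oligomeric Golgi complex, which tethers vesicles: Cog3 rose 1.68-fold (limma adjusted p = 0.00519), Cog8 2.21-fold (0.0053) and Cog7 1.78-fold (0.00639). The ratios of Myo5b and Bicd2, which were singled out with their values in view, were 0.676 and 0.708 (limma adjusted p = 0.0168 and 0.0296). Leaving out any control library ended the Myo5b call (adjusted p up to 0.0602), and leaving out control 1, control 3, N40K 2 or N40K 3 ended that of Bicd2 (0.0977).

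Among the exchange factors 7 of 31 rose and none fell, a share of 22.6% and so near that of all genes. Dennd4a and Dennd4c, exchange factors of Rab10, rose 2.84-fold and 2.02-fold (limma adjusted p = 0.00602 and 0.00337), and Dennd2c, an exchange factor of Rab9, rose 2.09-fold (0.0153), which did not pass when control 2, control 3 or N40K 2 was left out (0.0589). Among GTPase-activating proteins 16 of 38 rose, or 42.1% beside 21.5% of all genes. For these 38, median centring without a pseudocount gave 11 rises and 3 falls, beside 14.4% and 11.2% of all genes. Of this list 1 gene, Tbc1d2, named after its value was seen, fell to a ratio of 0.566 (limma adjusted p = 0.0349), a call that did not hold with any library other than control 2 left out (up to 0.109). Rabgap1l rose 1.60-fold (limma adjusted p = 0.00332), Tbc1d23, which captures vesicles at the Golgi, 1.64-fold (0.00471) and Usp6nl, which acts on Rab5, 2.33-fold (0.00486). Of 7 genes listed under prenylation and GDI function, 2 rose, beside 21.5% of all genes. Chm, the escort protein that presents Rabs for prenylation, rose 1.81-fold (limma adjusted p = 0.0109). Rabif, whose place in this list is uncertain, rose 1.77-fold (0.0186), a call that ended without any control library or without N40K 2 (0.0666). Under median centring the log2 changes of Chm, Cog7 and Rims2 turned negative on the log2(score + 0.01) scale and did not pass, while without a pseudocount they were 0.63, 0.63 and 0.96 and all 3 passed.

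**Figure D5:**
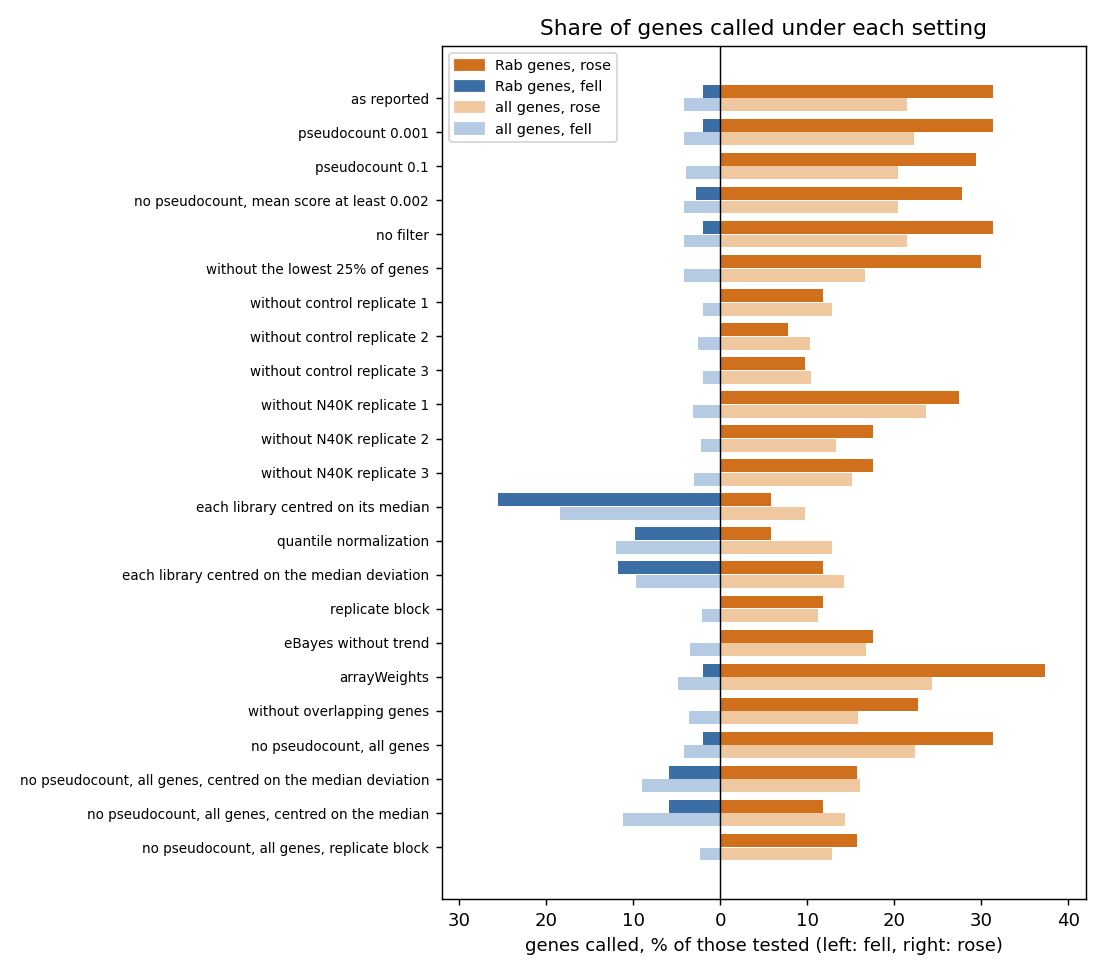
Share of genes called under each setting, with rises to the right and falls to the left, for Rab genes (dark bars) and all genes (light bars), in % of those tested. As reported, 31.4% of Rab genes and 21.5% of all genes rose; without control 2 these were 7.84% and 10.3%.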

How the data were processed

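Poly(A) RNA of 6 libraries was sequenced as stranded, paired reads of 100 nt, per the labels' protocols. Tools and builds named in the submitters' processing notes are bedtools 2.16.1, BWA, CASAVA, STAR and mm9 (their roles are not stated). The authors deposited 1 table of Sd scores, a linear ratio with 4 decimals; how it was computed, annotated and scaled, and the depth, is not given in the sources used here. Columns were assigned to libraries by name, and no intervals from counts were possible.

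For all 15705 genes, log2(score + 0.01) was fitted in R 4.3.3 by limma 3.58.1 (eBayes with trend, 2-sided, Benjamini-Hochberg adjustment). A log2 change on this scale understates changes of low scores, so the ratio of means is also given. The filter (above 0 in at least 3 libraries) removed 0 genes. Members, compartments and partner lists were chosen with earlier results of these data known; compartments follow textbook locations. Named genes were the called members, all Rab3 and Rab27 genes, the 3 smallest p-values of the endosomal and the Golgi and ER group, up to 3 called genes per partner list, and Snrnp70. Lengths, introns and overlaps came from GENCODE M21 (GRCm38, another build than mm9), matched by identifier for 14914 genes, so no coordinates are given. On simulated data for N40K against control (15705 genes, 50 changed per size), the fit called 14%, 52%, 84% and 90% of genes changed by 0.25, 0.5, 1 and 2 on the log2 scale, and 5 of 15505 genes left unchanged. The simulation had no shift between libraries and no rounding of scores, and few genes changed. In the data 25.6% of genes were called, so these rates need not carry over. The alternatives were other pseudocounts, filters, scalings and moderation, each library left out, and a replicate block.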

Additional observations from a re-analysis of the deposited data

How the results depend on the processing

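As reported, rises and falls were 3372 and 645 for all genes, 16 and 1 for Rab genes, 2 and 0 for synaptic, 4 and 0 for endosomal and 5 and 0 for Golgi and ER Rabs, and 54 and 3 for the partner lists; counts below are in the same order of rises and falls. Shifting libraries to a common median (median centring) gave 1531 and 2883 for all genes, 3 and 13 for Rab genes, 0 and 2 for synaptic, 1 and 5 for endosomal, 2 and 2 for Golgi and ER and 17 and 19 for the partner lists. Quantile normalization gave 2022 and 1883 for all genes, 3 and 5 for Rab genes, 0 and 0 for synaptic, 1 and 2 for endosomal, 2 and 1 for Golgi and ER and 30 and 10 for the partner lists. Aligning median deviations (deviation centring) gave 2235 and 1518 for all genes, 6 and 6 for Rab genes, 0 and 1 for synaptic, 2 and 2 for endosomal, 2 and 2 for Golgi and ER and 34 and 5 for the partner lists. Without the eBayes trend there were 9 and 0 for Rab genes, 0 and 0 for synaptic, 3 and 0 for Golgi and ER and 39 and 1 for the partner lists. The Rab share of rises was then 17.6%, near the 16.8% of all genes. Without overlapping genes there were 963 and 219 for all genes, 5 and 0 for Rab genes, 0 and 0 for synaptic, 0 and 0 for endosomal, 2 and 0 for Golgi and ER and 14 and 2 for the partner lists. That setting tested only 22 Rab genes and 6084 genes in all, of which 22.7% and 15.8% rose. Rab4a, Rab11a, Rab11b and Rab35 overlap another gene model and were not tested there, so no endosomal call could remain among them. Without the lowest 25% of genes there were 1968 and 483 for all genes, 9 and 0 for Rab genes, 1 and 0 for synaptic, 3 and 0 for Golgi and ER and 29 and 1 for the partner lists. Here 30 Rab genes and 11773 genes in all were tested, of which 30% and 16.7% rose. With no pseudocount and a mean score of at least 0.002 there were 10 and 1 for Rab genes, 1 and 0 for synaptic, 3 and 0 for Golgi and ER and 44 and 1 for the partner lists. Of the 36 Rab genes tested there 27.8% rose, beside 20.5% of the 14306 genes tested in all. A pseudocount of 0.1 gave 15 and 0 for Rab genes and 1 and 0 for synaptic, with rises in 29.4% of Rab genes beside 20.5% of all genes. With no pseudocount, centring on the median deviation gave 2533 and 1410 for all genes, 8 and 3 for Rab genes, 1 and 0 for synaptic, 2 and 1 for endosomal and 3 and 0 for Golgi and ER. With no pseudocount, centring on the median gave 2259 and 1765 for all genes, 6 and 3 for Rab genes, 0 and 0 for synaptic, 2 and 1 for endosomal, 2 and 0 for Golgi and ER and 40 and 9 for the partner lists. With 1 library left out, rises for all genes ran from 1613 to 3729, falls for all genes ran from 303 to 486, rises for Rab genes ran from 4 to 14, rises for synaptic ran from 0 to 2, rises for endosomal ran from 1 to 4, rises for Golgi and ER ran from 2 to 4, rises for the partner lists ran from 22 to 63, falls for the partner lists ran from 0 to 4; with any library left out no Rab gene fell. Same-numbered libraries did not deviate together (correlations of -0.07, 0.04 and -0.02 for numbers 1 to 3). With so few libraries this cannot show whether the numbers pair the samples, and the labels do not say. With the replicate number as a block there were 1770 and 328 for all genes, 6 and 0 for Rab genes, 1 and 0 for synaptic, 2 and 0 for endosomal, 2 and 0 for Golgi and ER and 23 and 0 for the partner lists. The block without a pseudocount gave 2020 and 355 for all genes, 8 and 0 for Rab genes, 1 and 0 for synaptic, 3 and 0 for Golgi and ER and 29 and 0 for the partner lists. These log2 changes turned in direction. Under median centring the values were Rab1 -0.083, Rab10 -0.075, Rab11a -0.049, Rab18 -0.10, Rab27b -0.0904, Rab3a -0.084, Rab3c -0.10, Rab3d -0.088, Rab8b -0.0028, Chm -0.056, Cog7 -0.00076, Rims2 -0.018 and Snrnp70 -0.053. After quantile normalization the values were Rab3a -0.055, Rab3d -0.10 and Snrnp70 -0.063. Under deviation centring the values were Rab1 -0.018, Rab10 -0.010, Rab18 -0.0304, Rab27b -0.025, Rab3a -0.0195, Rab3c -0.034 and Rab3d -0.023. With no pseudocount and that centring the values were Rab3a -0.042, Rab3d -0.11 and Snrnp70 -0.058. With no pseudocount and centring on the median the values were Rab3a -0.095, Rab3d -0.16 and Snrnp70 -0.11. With 1 library left out the change of Rab3b ran from -0.0135 to 0.0066 and that of Rab3d from -0.0025 to 0.117, with the turn in direction without N40K replicate 2 and control replicate 1. The causes were not tested. Depth is unknown, and the last decimal limits scores under about 0.001. A pseudocount of 0.001 and no filter changed no count by over 1.5 times. The arrayWeights setting gave 19 and 1 for Rab genes, with rises in 37.3% of them beside 24.4% of all genes. Alternatives without a pseudocount over all genes were chosen after seeing the data.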
